A study of Arabidopsis thaliana with 8 samples.

Results

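The effect of the fhy3-68 mutation on the transcriptome of young Arabidopsis thaliana inflorescences was measured by comparing all 4 libraries that carry it with all 4 that do not. The following 2 genotypes carry the mutation, the single mutant fhy3-68 and the double mutant ag-10 fhy3-68. The libraries without it were those of the Landsberg erecta wild type (Ler) and of the ag-10 single mutant. Each of the 4 genotypes had 2 libraries, so the comparison used all 8 libraries of the series, and ag-10 status entered the model as an additive term. Every one of the 19853 genes in the deposited table was tested. The tissue was inflorescence with flowers no older than stage 8, and the series calls the 2 libraries of a genotype distinct biological replicates. The labels give neither the lesion nor the origin of fhy3-68, which is a single allele, and they do not say how many plants a library pooled. The p-values measure the spread between these libraries only.

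FHY3 and its homologue FAR1 are transcription factors that descend from transposases of Mutator-like mobile elements. In seedlings they activate FHY1 and FHL, whose products carry the photoreceptor phytochrome A into the nucleus, and they bind DNA at the FHY3/FAR1 binding site, or FBS, with the letters CACGCGC. FHY3 is also known for roles in the circadian clock, chloroplast division, chlorophyll synthesis and the ending of floral meristem activity, a process that depends on the organ identity gene AGAMOUS (AG). The ag-10 allele is a mutation of AG. AG itself was not analysed here.

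Levels are the authors' deposited normalised read counts per 1000000 reads, and a fold change is a difference of log2(value + 0.5), with fhy3-68 minus without. A gene is called when its limma p-value, adjusted by Benjamini-Hochberg over all 19853 genes, is under 0.05. The listed genes held 12322061 to 14055142 reads in the libraries without fhy3-68 and 14091808 to 16816619 reads in those with it. On the first principal component, with 60.7% of the variance, the 4 libraries with fhy3-68 lay between 22.63 and 48.75 and the 4 without between -44.26 and -17.94, where ag-10 replicate 2 stood closest to the mutant side. The second component, with 14%, set replicate 1 (28.43 and 25.12) apart from replicate 2 (-23.36 and -14.56) in both fhy3-68 genotypes. Floral genes marked the tissue in every library, with AP1, a sepal and floral meristem gene, between 171.81 and 198.18, while 7 seed genes chosen as markers of older tissue were not analysed here.

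Transcripts of 4556 genes (22.9%) differed between the libraries with and without fhy3-68. Of these, 2585 (13%) were higher and 1971 (9.93%) were lower. The increases were the larger changes. They had a median log2 fold change of 0.64, and 782 of them (30.3%) were at least 2-fold and 42 at least 8-fold. The decreases had a median of -0.43, and 97 of them (4.92%) were at least 2-fold and 3 at least 8-fold. In 5399 genes (27.2%) the 4 values with fhy3-68 lay wholly above or wholly below the 4 without it. That held for 2272 of the genes called higher and for 1739 of those called lower. The share of genes called was 19.1% among the 4964 genes with the lowest mean levels and 26.0% among the 4963 with the highest, and it lay between 22.1% and 23.8% on each of the 5 chromosomes. The balance of directions depended on scaling. Higher genes were 56.7% of the calls under the authors' scaling and 43.1% when each library was rescaled to the same total, which gave 2145 higher and 2831 lower genes and moved the median of all genes by -0.04. Under both scalings 2144 genes were called higher and 1971 lower, and 0 genes changed direction.

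The 4 against 4 comparison can be split by background into 2 comparisons that share no library, fhy3-68 against Ler and ag-10 fhy3-68 against ag-10. With 2 libraries a side, 345 genes (1.74%) were called in the Ler background and 504 (2.54%) in the ag-10 background. Of the 317 genes called higher in the Ler background, 313 also had a positive fold change in the ag-10 background and 66 were called higher there. All 319 genes called higher in the ag-10 background had a positive fold change in the Ler background. Decreases behaved alike, with 27 of 28 from the Ler background and all 185 from the ag-10 background keeping their sign in the other background, and 19 genes called lower in both. Across genes, which are not independent replicates, the fold changes in the 2 backgrounds had a Pearson r of 0.83. Of the 4556 calls, 728 were also called in at least 1 background and 3828 in neither. The median standard error of a fold change was 0.1 with all 8 libraries, against 0.16 in the Ler background and 0.13 in the ag-10 background.

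**Figure D1:**
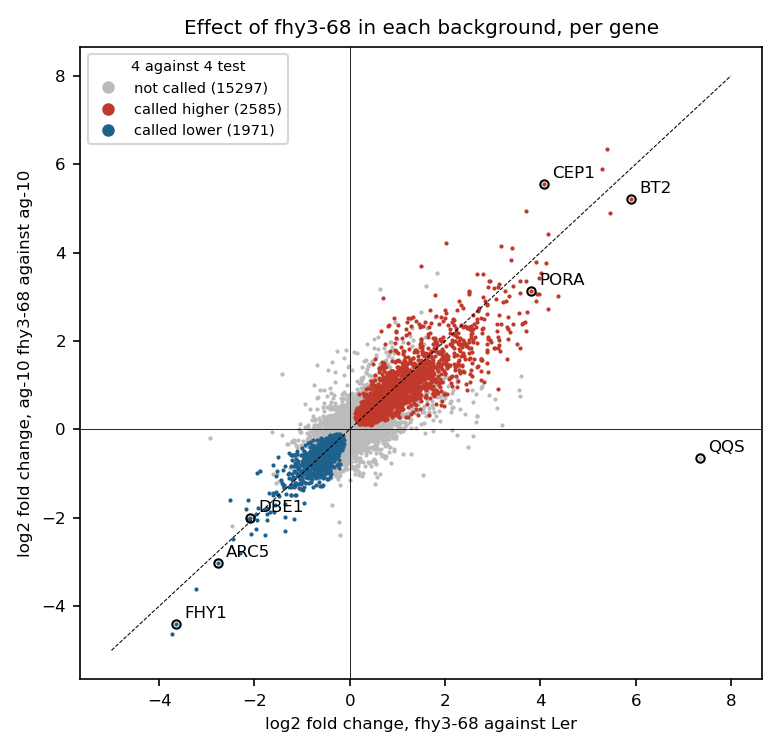
Log2 fold change of each of the 19853 genes for fhy3-68 against Ler (horizontal axis) and for ag-10 fhy3-68 against ag-10 (vertical axis), 1 point per gene, coloured by its call in the 4 against 4 test, with a dashed line where both are equal. Points called higher (2585) and lower (1971) lie in the upper right and lower left, and QQS stands alone at 7.35 and -0.65. The call rests on the average of both fold changes, so the placement of called points does not test their agreement.

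A single gene, QQS, was called for an interaction (1 of 19853, 0.00504%), that is, for an fhy3-68 effect that differed between the backgrounds. QQS is a short gene that arose recently in Arabidopsis and acts on starch content. Its level was 0.14 and 0.32 in Ler, 196.42 and 207.18 for ag-10, 101.17 and 136.36 in the single mutant fhy3-68, and 164.34 and 100.3 in the double mutant. Only the Ler libraries were low, so the 4 libraries with fhy3-68 overlapped the 4 without. The fold change was 7.35 (SE 0.23, limma adjusted p = 0.00309) in the Ler background and -0.65 (SE 0.23, limma adjusted p = 0.169) in the ag-10 background, and the interaction was -8.0 (SE 0.35, limma adjusted p = 0.000776). The additive coefficient of 3.35 (SE 1.38, limma adjusted p = 0.111) averages these unlike effects and was not called. At an unadjusted p under 0.05, 241 genes passed the interaction test. EdgeR called 1 gene and DESeq2 called 3. With a median standard error of 0.21, the interaction test had less precision than the additive one.

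The strongest decreases included the best known target of FHY3. FHY1, the phytochrome A transport factor, stood at 13.34 and 16.5 in Ler, 17.77 and 21.06 for ag-10, 1.61 and 0.22 in the single mutant fhy3-68, and 0.68 and 0.24 in the double mutant. All 4 libraries with fhy3-68 lay far below the other 4, and no values overlapped. The fold change was -4.02 (SE 0.34, limma adjusted p = 0.000789). Counted in reads, 923 in the libraries without fhy3-68 stood against 40 with it, a ratio of 25.5 after scaling (exact binomial 95% interval 18.6 to 35.9, counting error only). The FBS lies once in the 250 bases before the annotated start of FHY1 (TAIR10.1, chr2:15802794-15803043, minus strand, AT2G37678). The stretch is shown 5′ to 3′ on the gene's strand, up to the base before the start, with the FBS in capitals.
FHY1: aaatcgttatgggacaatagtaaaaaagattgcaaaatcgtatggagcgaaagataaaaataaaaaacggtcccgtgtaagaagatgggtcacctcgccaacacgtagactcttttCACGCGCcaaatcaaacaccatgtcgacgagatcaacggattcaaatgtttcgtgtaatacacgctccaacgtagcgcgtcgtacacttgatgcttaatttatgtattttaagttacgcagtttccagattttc

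ARC5, a dynamin-related protein that pinches dividing chloroplasts apart, stood at 75.43 and 72.76 in Ler, 76.31 and 64.18 for ag-10, 13.77 and 7.85 in the single mutant fhy3-68, and 8.7 and 7.65 in the double mutant. The highest value with fhy3-68 was thus well below the lowest without it. Its fold change was -2.9 (SE 0.16, limma adjusted p = 0.000329). DBE1, an isoamylase-type starch debranching enzyme, stood at 74.15 and 70.06 in Ler, 73.77 and 61.96 for ag-10, 23 and 11.89 in the single mutant fhy3-68, and 18.76 and 14.29 in the double mutant, again with no overlap. Its fold change was -2.05 (SE 0.18, limma adjusted p = 0.000916). DBE1 has a pair of FBS copies within the 250 bases before its annotated start (TAIR10.1, chr1:813163-813412, plus strand, AT1G03310). Both are on the opposite strand and so read GCGCGTG, in capitals.
DBE1: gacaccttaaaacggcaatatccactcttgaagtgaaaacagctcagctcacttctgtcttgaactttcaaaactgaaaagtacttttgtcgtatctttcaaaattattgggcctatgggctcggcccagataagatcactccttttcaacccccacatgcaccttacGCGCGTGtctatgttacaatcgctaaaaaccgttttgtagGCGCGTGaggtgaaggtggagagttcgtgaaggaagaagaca

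The largest decrease of all belonged to AT3G57930, annotated as a rho GTPase-activating gacO-like protein. It stood at 40.87 and 39.12 in Ler, 37.8 and 45.11 for ag-10, 4.61 and 1.3 in the single mutant fhy3-68, and 2.58 and 0.42 in the double mutant, with a fold change of -4.19 (SE 0.43, limma adjusted p = 0.00127). AT2G41990, annotated as a late embryogenesis abundant protein, stood at 21.5, 21.26, 22.29 and 19.45 without fhy3-68 and at 2.8, 1.15, 1.09 and 1.43 with it, with a fold change of -3.42 (SE 0.21, limma adjusted p = 0.000334). Both genes were low in every library with fhy3-68, and neither had overlapping groups. ADT4, an arogenate dehydratase of phenylalanine synthesis, fell from 35.15 to 60.6 in the libraries without fhy3-68 to 6.87 to 13.28 in those with it (-2.22, SE 0.22, limma adjusted p = 0.0011).

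The other 6 of the 12 largest decreases, taken among called genes whose groups did not overlap, had fold changes from -2.55 to -2.05. They were AT3G47010 (a glycosyl hydrolase, which overlaps another gene model and held 37 reads with fhy3-68), AT2G40820 (stomatal closure actin-binding-like), AT5G11930 (a thioredoxin-family protein), AT1G11700 (annotated as a senescence regulator of a family of undescribed function), AT3G07580 (uncharacterized) and AT1G59860 (an HSP20-like heat shock protein). AT1G59860 varied most among the controls, at 25.83, 3.25, 2.82 and 10.49 without fhy3-68 against 0.72 to 1.97 with it. Its call (-2.05, SE 0.63, limma adjusted p = 0.0474) was lost in 6 of the 8 fits that left out 1 library, with adjusted p up to 0.108. The other 11 decreases stayed called in each of those fits.

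**Figure D2:**
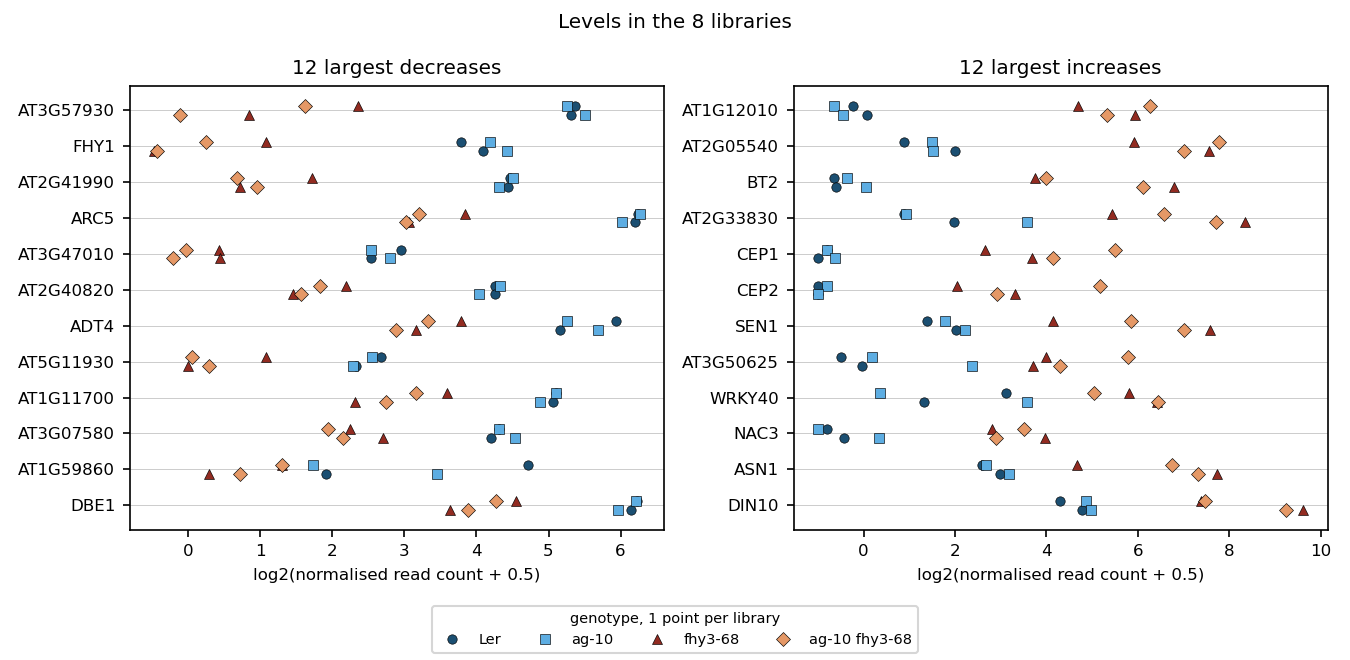
Level of the 12 genes with the largest decrease (left) and the 12 with the largest increase (right) in each of the 8 libraries, as log2(normalised read count + 0.5), 1 point per library, with shape and colour for the genotype. By the rule that picked these genes, the triangles and diamonds (libraries with fhy3-68) lie on one side of the circles and squares (libraries without it).

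Of these 12 decreases, 6 genes, FHY1 and DBE1 included, had the FBS in the window from 250 bases before to 50 bases after the annotated start. The sites are shown to compare their flanks, 5′ to 3′ on the gene's strand, with the FBS in capitals, which reads GCGCGTG where it lies on the opposite strand. The first base of the motif lies 134 bases before the start in FHY1 (chr2:15802910-15802938), 76 before in AT2G41990 (chr2:17527080-17527108), 32 after in ARC5 (chr3:6855541-6855569), 38 after in AT2G40820 (chr2:17040309-17040331) and 12 after in AT3G07580 (chr3:2422796-2422824). In DBE1 the motifs begin 82 (chr1:813320-813348) and 42 bases before the start (chr1:813360-813388). The reference is the Columbia genome, and the plants were of another accession.
FHY1: tagactcttttCACGCGCcaaatcaaaca
AT2G41990: tctcatatcccCACGCGCtaactcctgaa
ARC5: gcgccatggatGCGCGTGagattaaaaca
AT2G40820: tagctccgacgGCGCGTGaattt
AT3G07580: tcgaagaattcGCGCGTGaagattgaacg
DBE1, first: atgcaccttacGCGCGTGtctatgttaca
DBE1, second: ccgttttgtagGCGCGTGaggtgaaggtg

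The letters CACGCGC, on either strand, occurred in 338 of 19810 such windows (1.71%). They occurred in 6 of the windows of the 12 largest decreases, in 11 of those of the 97 genes that fell at least 2-fold (11.3%), and in 67 of those of 1970 genes called lower (3.4%). Among genes called higher the share was 2.4% (62 of 2581), with 2.56% of those that rose at least 2-fold and 0 of the 12 largest increases. Among genes not called it was 1.37%. The G-box CACGTG, which several light and hormone factors bind, was in 8.66% of all windows, 8.02% of those called lower and 10.3% of those called higher. The evening element AAATATCT, a site of clock factors, was in 5.83% of all windows, 4.47% of those called lower, 7.98% of those called higher and 9.21% of those that rose at least 2-fold. These shares describe letters in a fixed window. They show neither binding nor a cause, and a window without a motif says only that the letters are not in it.

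Within the FHY3 family, FHY3 mRNA itself was slightly lower with fhy3-68 and FAR1 was higher. FHY3 stood at 103.38, 109.81, 103.61 and 103.4 in the libraries without fhy3-68 and at 70.48, 93, 85.84 and 91.75 in those with it, a fold change of -0.31 (SE 0.09, limma adjusted p = 0.0396). The groups did not overlap, but the call was lost in 6 of the 8 fits that left out 1 library, with adjusted p up to 0.118. Because the lesion is not given, the FHY3 level does not check the genotype. FAR1 stood at 43.64, 42.53, 44.64 and 45.57 without fhy3-68 and at 56.07, 60.8, 66.06 and 65.81 with it, a fold change of 0.49 (SE 0.06, limma adjusted p = 0.00154), and stayed called with each library left out. The 12 measured FAR1-related genes of the FRS group were not called, with fold changes from -0.18 (FRS7) to 0.24 (FRS11).

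Of 11 measured genes that have been reported elsewhere as bound by FHY3, 5 were lower, 2 were higher and 4 were not called. That was 63.6% called, against 22.9% over all genes. The median fold change of the 11 was -0.18, against -0.01 for all genes. Beside FHY1, ARC5 and DBE1, the 5 lower genes held both main inositol phosphate synthases. MIPS1 stood at 127.79, 114.26, 118.91 and 82.49 without fhy3-68 and at 56.98, 23.63, 41.32 and 31.8 with it (-1.57, SE 0.25, limma adjusted p = 0.00489). MIPS2 fell from 249.69 to 277.94 down to 123.11 to 167.52 (-0.89, SE 0.1, limma adjusted p = 0.00151). In both genes every library with fhy3-68 was below every one without it, and these 5 decreases stayed called with any 1 library left out. The third synthase, MIPS3, was called lower at -0.4 (SE 0.12, limma adjusted p = 0.0471) with overlapping groups, a call lost when single libraries were left out.

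The members that went the other way were FHL and WRKY28. FHL, the homologue of FHY1 in phytochrome A transport, had few reads, at 0.78 to 1.23 without fhy3-68 and 1.43 to 2.8 with it (0.73, SE 0.21, limma adjusted p = 0.0383), and lost its call with single libraries left out. WRKY28, a WRKY factor that acts on salicylic acid synthesis, was close to 0 without fhy3-68 (0, 0.08, 0.07 and 0.31) and stood at 4.26, 8.07, 6.52 and 6.46 with it (3.47, SE 0.22, limma adjusted p = 0.000334). COP1, the E3 ligase that represses photomorphogenesis (-0.08), HEMB1, an enzyme of early chlorophyll synthesis (-0.18), the clock factor CCA1 (-0.09) and the abscisic acid factor ABI5 (0.49) were not called. Among these members the FBS also lay in the windows of MIPS2 (98 bases before the start, chr2:9454381-9454409), FHL (87 before, chr5:437267-437295) and COP1 (73 before, chr2:13977797-13977825), which were called lower, called higher and not called.
MIPS2: aattggtctctCACGCGCcatcacgaaac
FHL: tttctttagttCACGCGCcgttgcacgtg
COP1: aacgccagacaCACGCGCgaaaagaagcg

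The 12 largest increases included genes that dark or sugar-starved tissue is known to express, senescence genes, the defence factor gene WRKY40 and genes without a described role. AT1G12010, annotated as a 2OG-Fe(II) oxygenase, stood at 0.35 and 0.56 in Ler, 0.14 and 0.23 for ag-10, 25.45 and 60.87 in the single mutant fhy3-68, and 76.87 and 39.87 in the double mutant. Its fold change of 5.87 (SE 0.33, limma adjusted p = 0.000329) was the largest of all genes called. The reads were 17 without fhy3-68 and 3007 with it, a ratio of 160 after scaling (exact binomial 95% interval 99.8 to 275). The gene was entered on the list of ethylene genes as ACO3 and dropped from it, because the reference does not hold that name. AT2G05540, a glycine-rich protein, rose from 1.35, 3.49, 2.33 and 2.37 to 60.06, 188.45, 217.69 and 128.39 (5.59, SE 0.38, limma adjusted p = 0.000334). AT3G50625, which has no described function, rose from 0.21, 0.48, 0.63 and 4.67 to 15.45, 12.53, 54.64 and 19.13 (3.94, SE 0.48, limma adjusted p = 0.00195). By the rule that picked these genes the libraries were apart by side, and in AT3G50625 the highest control was ag-10 replicate 2.

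On the list of dark and sugar starvation genes, 15 of 19 measured members were higher, none was lower, and the median fold change was 1.44. That was 78.9% called, against 22.9% over all genes. BT2, a BTB scaffold protein that responds to sugar and nitrate, stood at 0.14 and 0.16 in Ler, 0.28 and 0.54 for ag-10, 13 and 110.58 in the single mutant fhy3-68, and 15.43 and 69.04 in the double mutant (5.55, SE 0.66, limma adjusted p = 0.00184). AT2G33830, a dormancy and auxin associated protein that shares the symbol DRM2 with a DNA methyltransferase, stood at 1.35, 3.41, 1.41 and 11.41 without fhy3-68 and at 43.07, 323.87, 94.54 and 210.04 with it (5.18, SE 0.73, limma adjusted p = 0.0032). In both genes replicate 2 of each mutant was more than replicate 1. Every library with fhy3-68 was above every one without it, as the rule for the largest increases required. SEN1, a dark-induced senescence gene (4.29), ASN1, the asparagine synthetase of dark-grown tissue (3.76), DIN10, a raffinose synthase-like protein (3.7), BCAT2, an aminotransferase of branched-chain amino acids (3.14), and DYL1, a dormancy-associated protein (3.1), rose as well, with limma adjusted p from 0.00252 to 0.00387.

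The trehalose phosphate synthase-like genes TPS8, TPS9, TPS10 and TPS11, of the class that sugar represses, rose together by 2.02, 1.05, 0.97 and 1.44 (limma adjusted p from 0.00151 to 0.0114). Members that were not called were the mannose phosphate isomerase DIN9 (0.6), the leucine-degrading carboxylase subunits MCCA (0.85) and MCCB (0.31) and the dehydrogenase subunit BCE2 (0.2). The summed level of the list was 517.1 to 580.3 without fhy3-68. With it the sums were 1059.9 and 3430.8 for the single mutant and 1429.7 and 2634.3 for the double mutant, so that replicate 2 of each genotype held the higher sum. Within the Ler background alone, 1 member was called, and in the ag-10 background 8.

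Genes of senescence and bud dormancy were mostly higher too, 15 of 20 higher and 1 lower, with a median of 1.93. In the double mutant their summed level was 793.5 in replicate 1 and 610.6 in replicate 2, unlike the starvation list. CEP1, a papain-like protease of dying cells, stood at 0.07 and 0 in Ler, 0.07 and 0.15 for ag-10, 5.8 and 12.32 in the single mutant fhy3-68, and 44.72 and 17.27 in the double mutant (4.81, SE 0.4, limma adjusted p = 0.000783). Its relative CEP2 had 1 read in the 4 libraries without fhy3-68 and 823 in the 4 with it (4.32, SE 0.51, limma adjusted p = 0.00184), a ratio of 744 with a wide counting interval of 133 to 2.94e+04. Both proteases were near 0 in all controls. The senescence NAC factors rose too, with NAC3 at 3.77, NAP at 3.07, NAC019 at 2.58, RD26 at 2.0 and NAC6 (AT5G39610) at 1.93 (limma adjusted p from 0.00105 to 0.00638).

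The axillary bud dormancy factor BRC1 rose from 1.76 to 5.79 in the controls to 10.77, 37.31, 16.11 and 20.62 (2.58, SE 0.4, limma adjusted p = 0.00437). The homeodomain genes that act with it in buds rose as well, HB21 by 3.67, HB40 by 3.61 and HB53 by 1.93 (limma adjusted p from 0.000637 to 0.00346). Of the chlorophyll breakdown genes, PPH (0.34) and NYC1 (0.44) were called higher, while NYE1 (0.51) and PAO (0.1) were not called. The lower member was SWEET15, a sucrose exporter named for its rise in senescing leaves, at 17.39 to 20.15 without fhy3-68 and 10.16 to 14.75 with it (-0.6, SE 0.12, limma adjusted p = 0.0107). SAG13, a classical leaf senescence marker, was not called (0.95, SE 0.4, limma adjusted p = 0.115) and was highest among the controls in ag-10 replicate 2, at 3.29.

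**Figure D3:**
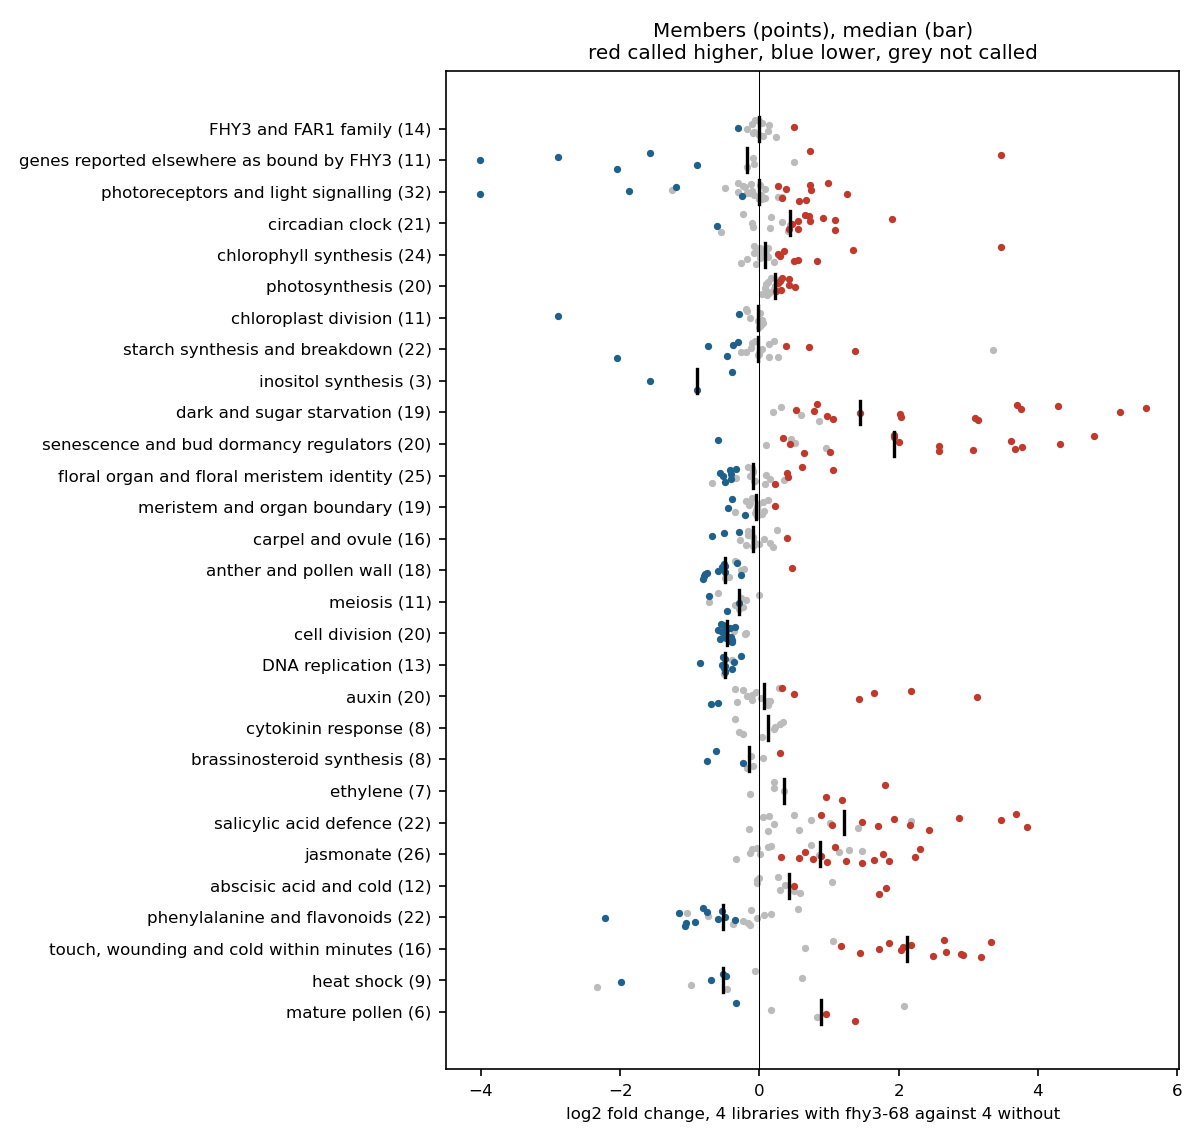
Log2 fold change (4 libraries with fhy3-68 against 4 without) of the measured members of each gene list with at least 3 members, 1 point per gene, red if called higher, blue if called lower and grey if not called, with the list's median as a bar and the number of members in brackets. The medians run from -0.89 (inositol synthesis) to 2.12 (touch, wounding and cold genes), and all points of the cell division and DNA replication lists lie below 0.

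On the list of photoreceptors and light signalling, which holds FHY1 and FHL too, 9 of 32 members were higher and 4 were lower. The share called was 40.6%, against 22.9% over all genes, and the median was 0.00. The blue light receptors CRY1 (0.38, limma adjusted p = 0.00625) and CRY2 (0.67, limma adjusted p = 0.0041) rose, as did PIF4 (1.26), PIF5 (0.74) and PIF7 (0.98), factors of shade and dark growth. CRY2 stood at 137.37, 159.56, 144.8 and 169.96 without fhy3-68 and at 215.62, 281.88, 229.11 and 246.86 with it, with no overlap. PHYA (0.32, limma adjusted p = 0.0491) and PHYB (-0.25, limma adjusted p = 0.0402) were called in opposite directions, and both calls were lost with single libraries left out.

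The microprotein gene BBX31 fell from 2.6 to 4.05 down to 0.22 to 0.98 (-1.87, SE 0.25, limma adjusted p = 0.00291), and its relative BBX30, also a microprotein gene, changed by -1.2 (limma adjusted p = 0.0221), a call lost when single libraries were left out. Another gene of the BBX group, BBX28, was called higher (0.26, limma adjusted p = 0.0287) with overlapping groups, a call lost in 5 of the 8 fits that left out 1 library. PIF3 was not called (0.03). HY5, the main factor of photomorphogenesis, was not called (0.01, SE 0.17, limma adjusted p = 0.984). The count of higher light genes was 5 without Ler replicate 1. The count of lower ones was 2 without either Ler library or without ag-10 fhy3-68 replicate 2, and 7 without ag-10 fhy3-68 replicate 1.

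In the circadian clock 11 of 21 genes were higher and 1 was lower (57.1% called, against 22.9% over all genes). The median fold change was 0.44. PRR5, an evening-phase repressor, stood at 5.68, 5.71 and 5.78 in both Ler libraries and ag-10 replicate 1, at 21.52 in ag-10 replicate 2, and at 23.7, 41.49, 28.21 and 35.33 with fhy3-68 (1.91, SE 0.38, limma adjusted p = 0.0107). RVE1, a clock output factor (1.08), and RVE2 (0.92) rose as well, and these 3 were the clock calls that held with each library left out. The morning factors CCA1 (-0.09) and LHY (-0.55, SE 0.27, limma adjusted p = 0.169) were not called. The count of higher genes fell to 4 without either Ler library, to 6 without ag-10 replicate 1 and to 5 without ag-10 fhy3-68 replicate 2, and was 12 without ag-10 replicate 2. The time of day of harvest is not given in the sources used here, and its part in these values was not tested.

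The largest transcript changes on the chlorophyll list were in the protochlorophyllide reductase genes PORA and PORB. PORA, the reductase of etiolated seedlings, stood at 3.19 and 3.73 in Ler, 4.3 and 11.72 for ag-10, 38.38 and 78.3 in the single mutant fhy3-68, and 69.39 and 63.78 in the double mutant (3.47, SE 0.32, limma adjusted p = 0.000965). PORB, its relative in green tissue, stood at 150.14, 206.77, 179.43 and 431.75 without fhy3-68 and at 470.82, 651.21, 494.58 and 657.56 with it (1.34, SE 0.28, limma adjusted p = 0.0122). In both, ag-10 replicate 2 was the highest control, though still below every library with fhy3-68. PORC, the third reductase, was not called (-0.27, SE 0.09, limma adjusted p = 0.0619). HEMA1, which encodes the enzyme that commits glutamate to tetrapyrroles, rose from 228.32 to 255.1 up to 349.79 to 386.62 (0.56, SE 0.06, limma adjusted p = 0.0013), and HEMA2 (0.83), CAO (0.5) and CHLM (0.35) rose too. In all, 8 of 24 pathway genes were higher and 0 were lower (33.3% called, against 22.9% over all genes), with a median of 0.08.

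All 20 measured photosynthesis genes had a positive fold change, with a median of 0.22 and a range from 0.04 to 0.51, and 8 were called higher. LHCA4, a light-harvesting protein of photosystem I, stood at 1903.47 to 2107.9 without fhy3-68 and 2491.33 to 3249.19 with it (0.51, SE 0.11, limma adjusted p = 0.0127). Leaving out single libraries brought the count of higher genes down to 2 (Ler replicate 2), 3 (Ler replicate 1 or ag-10 fhy3-68 replicate 1), 4 (replicate 2 of ag-10 or of fhy3-68) or 5 (ag-10 fhy3-68 replicate 2). LHCA2 (0.42) and LHCB4.1 (0.42) stayed called in each case. With library totals as the scale, 7 were called and the median was 0.18.

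The 4 genes with the highest mean level among all called higher were also light-harvesting genes, CAB1, CAB3, LHCA4 and LHB1B2. CAB1 stood at 3513.07, 3227.42, 3666.3 and 3579.88 without fhy3-68 and at 5416.49, 6106.22, 6052.12 and 5269.66 with it (0.71, SE 0.11, limma adjusted p = 0.0043). CAB1, CAB3 and LHB1B2 are close copies of one another, so how the reads were divided among them is uncertain, and the calls of CAB3 and LHCA4 were lost with single libraries left out. The 4 lower genes with the highest mean level were AT5G33370, a GDSL-type lipase (-0.57), LTP6, a lipid transfer protein (-0.66), DWF1, an enzyme of sterol and brassinosteroid synthesis (-0.24), and GAPC1, a cytosolic glycolytic dehydrogenase (-0.48). The call of DWF1 was lost in 6 of the 8 fits that left out 1 library, and that of AT5G33370 in 1. LTP6 stood at 897.67 to 988.89 without fhy3-68 and 501.59 to 773.83 with it (SE 0.13, limma adjusted p = 0.00871).

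Of 11 chloroplast division genes, ARC5 and FTSZ2-2 were lower and none was higher, a share called below the 22.9% over all genes. FTSZ2-2, a tubulin-like ring protein, changed by -0.29 (SE 0.06, limma adjusted p = 0.0128), while the dynamin-recruiting PDV1 (-0.2) and PDV2 (-0.02) and the ring organiser ARC6 (-0.18) were not called. In starch metabolism 5 of 22 genes were lower and 3 higher (36.4% called). The lower genes beside DBE1 were the branching enzyme SBE2.2 (-0.38), the ADP-glucose pyrophosphorylase subunits APL3 (-0.74) and APS1 (-0.31) and the granule-bound synthase GBSS1 (-0.46). Their limma adjusted p ran from 0.00376 to 0.0236.

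The higher starch genes were the beta-amylases BAM1 and BAM3 and the synthase SS4 (0.38, limma adjusted p = 0.0268). BAM1 stood at 115.66 and 93.63 in Ler, 49.72 and 46.95 for ag-10, 218.35 and 183.98 in the single mutant fhy3-68, and 133.28 and 215.6 in the double mutant (1.37, SE 0.21, limma adjusted p = 0.00393). The ag-10 libraries were the lowest, and the sides did not overlap. BAM3 was called at 0.71 (SE 0.16, limma adjusted p = 0.0155). Calls of GBSS1, APS1, BAM3 and SS4 were lost with single libraries left out, and the counts fell to 3 lower without replicate 1 of Ler or of ag-10 and to 1 higher without Ler replicate 1.

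Floral identity genes changed by small amounts in both directions, with 5 of 25 higher, 7 lower and a median of -0.09. That was 48.0% called, against 22.9% over all genes. SEP2, a MADS-box cofactor of floral organ identity, stood at 220.6, 246.05, 234.16 and 276.65 without fhy3-68 and at 155.42, 160.21, 201.04 and 165.87 with it (-0.52, SE 0.08, limma adjusted p = 0.005). SEP1 (-0.34), AP2 (-0.42), SPL4 (-0.5) and SPL15 (-0.57), of which the SPL genes promote flowering, fell as well and stayed called with each library left out. FUL, a MADS-box gene of inflorescences and fruit walls, rose from 30.68 to 34.49 up to 48.66 to 53.67 (0.61, SE 0.06, limma adjusted p = 0.00116). AP3, the petal and stamen gene (-0.41), and SEP3 (0.23) were called in opposite directions, but both calls were lost with single libraries left out. Higher counts fell to 1 without Ler replicate 1 and to 3 without ag-10 replicate 1. AP1, PI and LFY were not called, at -0.07, -0.1 and -0.16.

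Of 19 meristem and boundary genes 3 were lower and 1 was higher (21.1% called), and of 16 carpel and ovule genes 3 were lower and 1 was higher (25.0% called). Both shares were near the 22.9% called over all genes. WUS, the homeodomain factor that keeps stem cells, stood at 11.85, 12.06, 11.85 and 10.19 without fhy3-68 and at 9.79, 8.5, 8.02 and 6.99 with it (-0.45, SE 0.1, limma adjusted p = 0.0155). The groups did not overlap, but the call was lost in at least 1 fit without a library, at adjusted p up to 0.0547. KNU, a repressor of WUS, was not called (0.12, SE 0.21, limma adjusted p = 0.704). CUC2, an organ boundary gene, fell from 15.62 to 17.98 down to 12.49 to 13.0 (-0.4, SE 0.08, limma adjusted p = 0.00915).

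SPT, a bHLH factor of carpel margins, had the clearest change on the carpel list. It stood at 29.52, 31.42, 32.23 and 33.55 without fhy3-68 and at 19.23, 18.95, 19.78 and 20.44 with it (-0.68, SE 0.06, limma adjusted p = 0.000889). CRC, a carpel gene downstream of AG, was not called (-0.2, SE 0.08, limma adjusted p = 0.0951). The lower carpel count was 1 without either Ler library or without ag-10 fhy3-68 replicate 2, and the lower meristem count was 1 without ag-10 replicate 1.

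Anther genes were mostly lower, 11 of 18 against 1 higher (66.7% called, against 22.9% over all genes), with a median of -0.49. Those called with any 1 library left out were the early anther regulators SPL (AT4G27330) and EMS1, the pollen wall genes MS2, CYP703A2, CYP704B1 and ABCG26, and ATA1, a tapetum-expressed dehydrogenase. MS2, a fatty acid reductase of the pollen wall, stood at 596.25 and 603.97 in Ler, 455.05 and 515.31 for ag-10, 370.42 and 357.52 in the single mutant fhy3-68, and 225.78 and 324.62 in the double mutant (-0.78, SE 0.11, limma adjusted p = 0.00314). Levels were lower in ag-10 than in Ler and lower again with fhy3-68, without overlap between the sides. CYP703A2 (-0.81), CYP704B1 (-0.79) and ABCG26 (-0.75) had fold changes of like size (limma adjusted p from 0.00151 to 0.00314). TPD1, the secreted ligand of EMS1, was the member called higher (0.47, limma adjusted p = 0.0418), a call lost with single libraries left out. The lower count was 7 without Ler replicate 1.

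Of 6 measured mature pollen markers 2 were higher and 1 was lower, and their summed level was 31.5 to 59.5 without fhy3-68 and 58.3 to 141.2 with it, so the sides overlapped. Of 11 meiosis genes 3 were lower, MSH4 (-0.73), AHP2 (-0.47) and TAM (-0.3), and none was higher, a share of 27.3% called that was near the 22.9% over all genes. Those 3 calls were lost with single libraries left out, and the count was 0 when Ler replicate 2 was left out and 1 when Ler replicate 1 was, or either ag-10 library or ag-10 fhy3-68 replicate 1. In bulk tissue, fewer cells of a type and less RNA per cell cannot be told apart.

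Most measured cell cycle genes were lower with fhy3-68. Of 20 cell division genes 17 were called lower and none higher, with a median of -0.46 and a range from -0.6 to -0.2. The list had 85.0% called, against 22.9% over all genes. AUR1, a mitotic Aurora kinase, stood at 41.86, 39.28, 38.79 and 37.15 without fhy3-68 and at 28.88, 27.52, 22.63 and 23.97 with it (-0.6, SE 0.07, limma adjusted p = 0.00145). CYCB1;1, a mitotic cyclin used as a marker of dividing cells, stood at 40.16, 37.37, 35.19 and 40.06 against 28.53, 26.73, 24.4 and 27.73 (-0.5, SE 0.07, limma adjusted p = 0.00356). Neither gene had overlapping groups. The kinases CDKB1;1 (-0.37), CDKB1;2 (-0.21) and AUR3 (-0.2) were the members not called.

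DNA replication genes had a like median of -0.5, with 11 of 13 lower and none higher (84.6% called, against 22.9% over all genes). MCM3, a subunit of the replicative helicase, stood at 125.38, 117.99, 120.32 and 125.76 without fhy3-68 and at 92.64, 73.84, 88.35 and 86.13 with it (-0.52, SE 0.07, limma adjusted p = 0.00333). All 6 MCM helicase genes were lower, from -0.52 to -0.36. TSO2, a ribonucleotide reductase subunit, had the largest decrease on the list, at -0.85 (SE 0.23, limma adjusted p = 0.0321), with a low of 55.68 in fhy3-68 replicate 2, and its call was lost with single libraries left out. Summed levels were 1165.3 to 1224.8 without fhy3-68 and 720.1 to 980.9 with it for DNA replication, and 908.9 to 1000.3 against 618.6 to 769.6 for cell division. With single libraries left out the counts stayed between 13 and 18 for cell division and between 9 and 12 for DNA replication.

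**Figure D4:**
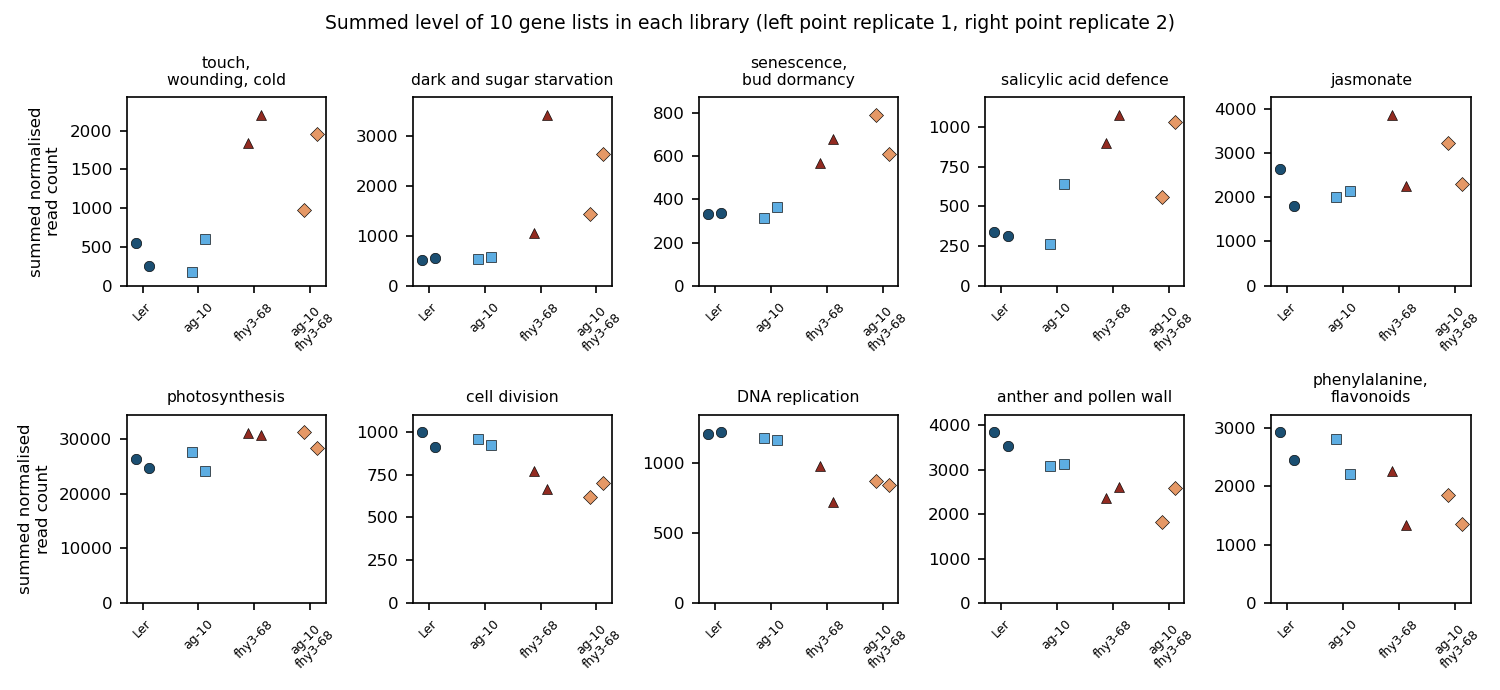
Summed normalised read count of 10 gene lists in each library, by genotype, with replicate 1 on the left and replicate 2 on the right of each pair and each axis starting at 0. The sums of the touch, starvation, senescence and photosynthesis lists are higher in all 4 libraries with fhy3-68, those of the cell division, DNA replication and anther lists are lower in all 4, and the salicylic acid, jasmonate and flavonoid sums overlap.

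Hormone genes moved in different ways by pathway. Auxin genes had 6 of 20 higher and 2 lower, a share called above the 22.9% over all genes. Their median fold change was 0.07, against -0.01 for all genes. The enzymes GH3.5 (1.65) and GH3.2 (2.18), which join auxin to amino acids, and the repressor gene IAA2 (1.43) rose, while the biosynthesis gene TAA1 (-0.6) and the repressor gene IAA17 (-0.7) fell. GH3.5 stood at 37.11, 43.72, 36.18 and 44.81 without fhy3-68 and at 89.07, 169.72, 133.21 and 132.63 with it (SE 0.18, limma adjusted p = 0.00143). The nitrilase NIT2 rested on 3 reads without fhy3-68 and 459 with it, a ratio of 138 (exact binomial 95% interval 47.1 to 673). Of 8 cytokinin response genes 0 were called by limma in either direction, with fold changes from -0.35 to 0.34, and 4 had an unadjusted p under 0.05. The calls were also 0 with edgeR and with DESeq2, while 1 gene was called higher without either library of the single mutant and 2 were called lower with a replicate block.

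The ethylene synthesis genes ACO4 (1.19, limma adjusted p = 0.0363) and ACS6 (1.81, limma adjusted p = 0.0173) were called higher, and both calls were lost with single libraries left out. AT1G12010, entered on the ethylene list as ACO3 but dropped by name, had the largest increase of all genes called (above). Its call held with each library left out. In brassinosteroid synthesis 3 of 8 genes were lower and CPD was higher (0.3), a share called above the 22.9% over all genes. The median fold change of these 8 genes was -0.15, against -0.01 for all genes. BR6OX2, which makes the last step to brassinolide, fell from 29.23 to 33.01 down to 14.84 to 20.49 (-0.75, SE 0.1, limma adjusted p = 0.00281). The lower count there was 1 without either Ler library, ag-10 replicate 1 or either ag-10 fhy3-68 library. Of 12 abscisic acid and cold genes 3 were higher and none was lower, a share of 25.0% called that was near the 22.9% over all genes. Among the higher ones was NCED3, the enzyme that limits abscisic acid synthesis (1.82, SE 0.36, limma adjusted p = 0.00998). The count of higher genes on that list was 1 without either Ler library or ag-10 replicate 1, and 5 without ag-10 replicate 2.

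Many defence genes were higher with fhy3-68, and several varied among the controls. On the salicylic acid list 11 of 22 genes were higher, none was lower and the median was 1.22. Within the Ler background alone 12 members were called higher, with a median of 1.53. In the ag-10 background 2 were, with a median of 0.7. WRKY40, a WRKY factor of early defence, stood at 8.16 and 1.98 in Ler, 0.78 and 11.41 for ag-10, 55.79 and 85.72 in the single mutant fhy3-68, and 32.56 and 86.67 in the double mutant (3.85, SE 0.69, limma adjusted p = 0.00711). WRKY18, its close relative, stood at 7.19 to 11 without fhy3-68 and 36.9 to 99.84 with it (2.86, SE 0.26, limma adjusted p = 0.000957). CBP60G, a regulator of salicylic acid synthesis, was at 0.14, 0.24, 0.42 and 3.83 without and 8.67 to 21.47 with it (3.69, SE 0.52, limma adjusted p = 0.00324).

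The synthesis enzyme gene ICS1 was not called (-0.15, SE 0.08, limma adjusted p = 0.184), nor were the pathogenesis genes PR2 (2.17, SE 0.79) and PR5 (1.41, SE 0.72). The pathogenesis gene PR1 was called higher (1.7, SE 0.31, limma adjusted p = 0.00789) and stayed called with each library left out. It had few reads, at 0.07, 0.08, 0.07 and 1.07 without fhy3-68 and 0.91, 1.37, 2.92 and 3.11 with it, and ag-10 replicate 2 overlapped the mutant side. In PR2 and PR5, the highest of all 8 values was in ag-10 replicate 2, at 49.86 and 70.23. Summed levels of the list overlapped, at 264.9 to 643.1 without fhy3-68 and 558.9 to 1079.8 with it. Without ag-10 replicate 2 the count of higher genes was 16, and without ag-10 replicate 1 it was 7.

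On the jasmonate list 14 of 26 genes were higher (53.8% called, against 22.9% over all genes), none was lower and the median was 0.87. MYC2, the central jasmonate factor, stood at 165.4 and 65.3 in Ler, 51.7 and 120.25 for ag-10, 348.81 and 302.62 in the single mutant fhy3-68, and 223.26 and 269.93 in the double mutant (1.64, SE 0.32, limma adjusted p = 0.00927). The repressor genes JAZ1 (1.86), JAZ5 (1.48), JAZ7 (1.77) and JAZ9 (0.77), the synthesis genes LOX4 (2.24) and OPR3 (0.88) and the turnover gene CYP94B3 (2.3) rose and stayed called with each library left out. VSP1, a storage protein and late marker of the pathway, was not called (0.16, SE 0.34, limma adjusted p = 0.763). Its close relative VSP2 was called higher (1.08, SE 0.33, limma adjusted p = 0.0474) with overlapping groups, a call lost in 6 of the 8 fits that left out 1 library. The count was 8 without Ler replicate 2 and 9 without ag-10 replicate 1.

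Genes that respond to touch, wounding or cold within minutes were also higher with fhy3-68. Their summed level was 1836.2 and 2207 in replicates 1 and 2 of the single mutant, against 3872.8 and 2258.9 for jasmonate genes. In the double mutant it was 976.1 and 1954.8, against 3218.1 and 2299.3. The controls held 549.5 and 247.3 in Ler, against 2645.9 and 1805.6, and 172.1 and 604.9 in ag-10, against 2000.0 and 2145.5. Between replicates, both sums moved the same way within Ler and within ag-10 but opposite ways within each fhy3-68 genotype. The 16 touch, wounding and cold markers had a median of 2.12. Of them 14 were higher and none was lower (87.5% called, against 22.9% over all genes). Of these calls 10 held with each library left out. Within the Ler background alone 5 markers were called higher (median 2.37), and in the ag-10 background 0 (median 1.87). TCH4, a touch-induced cell wall enzyme, stood at 68.4 and 21.03 in Ler, 11.99 and 58.9 for ag-10, 367.97 and 458.58 in the single mutant fhy3-68, and 176.57 and 373.22 in the double mutant (3.33, SE 0.52, limma adjusted p = 0.00452). The summed level was 172.1 to 604.9 without fhy3-68, highest in ag-10 replicate 2, and 976.1 to 2207 with it. No marker was at 0 on either side, and the part of handling in the defence and jasmonate values was not tested. Heat shock markers went the other way, with 4 of 9 lower and none higher (44.4% called, against 22.9% over all genes). MBF1C, a heat-responsive coactivator, stood at 99.84, 31.5, 23.49 and 72.69 without fhy3-68 and 8.79 to 16.5 with it (-1.99, SE 0.44, limma adjusted p = 0.0146). Their summed level was 101.9 to 268.6 without and 62.5 to 96.0 with fhy3-68.

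Phenylalanine and flavonoid genes were lower, 11 of 22 with none higher and a median of -0.52. Of 6 arogenate dehydratase genes, ADT4 (above), ADT3 (-0.93, limma adjusted p = 0.00758) and ADT6 (-1.07, limma adjusted p = 0.0111) fell, while ADT1 (-0.14), ADT2 (-0.03) and ADT5 (-0.12) were not called. ADT3 stood at 32.57, 33.48, 33.99 and 28.03 without fhy3-68 and at 23.21, 12.82, 17.67 and 14.05 with it, with no overlap. MYB111, a flavonol regulator, fell from 32.17 to 33.48 down to 14.19 to 25.52 (-0.81, SE 0.16, limma adjusted p = 0.00935).

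The flavonoid enzyme genes TT4 (-0.75), FLS1 (-1.15), 4CL3 (-1.05) and UGT78D2 (-0.54) were called lower, but lost their calls with single libraries left out. FLS1, the flavonol synthase, stood at 510.11, 439.65, 514.3 and 383.34 without fhy3-68 and at 359.3, 120.44, 258.95 and 163.54 with it, lower in replicate 2 of each genotype. The summed level of the list was lower in replicate 2 of all 4 genotypes, at 2938.7 and 2453.1 in Ler, 2805.9 and 2209.7 for ag-10, 2263.9 and 1333.2 in the single mutant, and 1849 and 1347.9 in the double mutant. The sides overlapped over all 8 libraries and were apart within each replicate number. The anthocyanin genes DFR (0.56) and LDOX (0.17) were not called. The count was 4 without replicate 1 of Ler or of ag-10 or without ag-10 fhy3-68 replicate 2, and 6 without replicate 2 of Ler or of fhy3-68.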

How the data were processed

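The authors deposited a normalised signal per gene and library, whose values behave as whole reads of a gene, scaled by 1 factor for each library to 1000000 reads. After division by the value of 1 read, 100% of values lay within 0.1 of a whole read. Per the submitters' processing notes, the tools were edgeR 3.10.0, HTSeq 0.6.1p1, TopHat2 2.0.14 and CASAVA 1.8, in no stated role. For build, annotation and strand, the sources used here give nothing. The table held 19853 genes, each with at least 1 in 2 libraries.

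Groups came from library titles. Tests came from limma 3.58.1 (R 4.3.3), fitted to log2(value + 0.5) with a trend on intensity and terms for ag-10 and fhy3-68 (two-sided, Benjamini-Hochberg over all genes, 5 residual and 3.55 prior degrees of freedom). Such fold changes understate the change of low genes. The interaction used a coefficient per genotype (4 residual degrees of freedom), and each background was fitted on its own 4 libraries. The code was tested on simulated data. The libraries of a genotype differed by more than sampling noise, with a chi-square per degree of freedom of 4.68 to 27.5. Alternatives were edgeR 4.0.16 and DESeq2 1.42.0 on the recovered reads, other scalings, pseudocounts, filters and models, and each library left out.

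The comparison, the 31 gene lists and the rule for named genes were chosen with earlier results of these data known. The rule names the 12 largest decreases and increases among called genes whose sides do not overlap, the 4 highest-level genes called each way, interaction calls, called list members and all members of the FHY3 family and FHY3-bound lists. The lists had 532 entries. In 11 the name and the reference's symbol disagreed, so these were dropped, and a further 44 were not analysed here. AG and CLV3 were not analysed here. A called list member is not reported here.

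RefSeq TAIR10.1 supplied names, windows and sequences by locus identifier, matching 19811 of 19853 genes (99.79%). Of 258 named genes, 66 overlap another gene model, so their reads may not have been told apart. Intervals cover counting error only, because PCR reads without molecular identifiers are not independent molecules.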

Additional observations from a re-analysis of the deposited data

Results flagged for a closer look

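QQS had unlike effects of fhy3-68 in the 2 backgrounds by the test of the difference itself. Its interaction was -8.0 on the log2 scale (SE 0.35, limma adjusted p = 0.000776), from 7.35 in fhy3-68 against Ler to -0.65 in ag-10 fhy3-68 against ag-10. In both Ler libraries it was near 0, at 0.14 and 0.32, and in the other 6 it was at least 100.3.

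In CEP2, 1 of the 4 libraries without fhy3-68 stood apart from the other 3, with a gap equal to the whole range of the group (a ratio of 1.0, past Dixon's critical value). That library was ag-10 replicate 1, and the gap was 1 read against 0 in the others. It was the single such case in 66 groups of 4 libraries over 33 genes, where chance gives about 1 in 20 groups.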

How the results depend on the processing

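The 4556 calls were 4481 with edgeR and 4619 with DESeq2, and 4387 and 4149 of the calls were shared with 0 changes of sign. With the samples of 1 background only, the counts were 345 in Ler (317 higher, 28 lower) and 504 in ag-10 (319 higher, 185 lower), from 4 libraries in place of 8. With 1 library left out, the calls ranged from 2228 (without Ler replicate 1) to 6242 (without fhy3-68 replicate 1), the higher genes from 1403 to 3262 and the lower from 825 to 2980. The calls were 2454 without Ler replicate 2, 2404 without ag-10 replicate 1 and 2799 without ag-10 fhy3-68 replicate 2. The interaction count was 3 with DESeq2 and 1 to 3 with 1 library left out, 3 without ag-10 replicate 1. The cause was not tested. Of 241 called genes named by the rule, 147 stayed called in all 8 such fits. CCA1, not called, went from -0.09 to 0.16 in the ag-10 background alone and ranged from -0.3 to 0.02 with 1 library left out, above 0 without ag-10 replicate 1, and QQS to -0.65 in the ag-10 background alone. QQS was called in the additive model by DESeq2 (4.13, adjusted p = 0.0351) and by limma with a coefficient per genotype (3.35, SE 0.18, adjusted p = 0.00101). In a fit with a replicate block, 5874 genes were called (3219 higher, 2655 lower), holding 4554 of the 4556. It called 15 phenylalanine and flavonoid genes lower, against 11. Whether the numbers mark a shared batch is not given. Correlations of the deviations of same-numbered libraries were over 0.1 in 3 of 6 pairs of genotypes and ranged from -0.108 (Ler with ag-10 fhy3-68) to 0.453 (fhy3-68 with ag-10 fhy3-68). Depth limits low genes, where the median standard error was 0.19 in the 4964 genes with the lowest levels and 0.07 in the 4963 with the highest.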
